A study of Mus musculus with 31 samples.

Results

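Mammary tissue of mice whose only intact Stat5 genes are the 2 alleles of Stat5b was compared between the day of parturition and day 6 of pregnancy. The animals, called BB, are Stat5a-/-. The genes described are those with a scaled level of 1 or more in at least 1 of the BB columns, 12945 of the 22609 genes listed. A few genes below that limit, such as Gpm6a and Pip, are named with their levels. The level is FPKM, a count of sequenced fragments made relative to transcript length and library size, with the 12 columns of the series scaled together by the median ratio. At the edge of the rule, Gdpd3 entered with 0.620 on day 6 and 1.00 at parturition, and Gpm6a stayed out with 0.999 and 0.721. Of the genes kept, 11887 reached the limit at both stages, 666 on day 6 only and 392 at parturition only.

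The study took poly(A) RNA from glands freed of lymph nodes, in mice of a mixed 129SV, FVB/N and C57BL/6 background, at each of these stages. Parturition samples were collected within 12 hours of delivery. The BB columns stand for 3 samples on day 6 and 2 at parturition. Beside BB, 3 genotypes with samples of their own at both stages are used. AABB is wild type, for which the series' design also names Stat5abfl/fl mice. AB is Stat5ab+/null, with 1 allele of each gene. B (Stat5abnull/Stat5a-) has, by its label, 1 Stat5b allele and no intact Stat5a allele. The scaling also used the A (Stat5abnull/Stat5b-) and Null (Stat5abfl/fl;MMTV-Cre) columns, the latter with deletion driven by a mammary tumour virus promoter.

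Each column is the authors' mean over the samples of a genotype and stage. No spread between animals can be had, so no difference given here was tested and none has an error. A change is the log2 ratio of scaled FPKM + 1 at parturition over day 6, which understates the changes of weakly expressed genes, and a gene is called higher or lower where that ratio reaches 2-fold. Each stage is a table of its own, so stage and anything done to a whole table cannot be told apart, in any level set across them. Where a gene has 2 values joined by "and", the first is its scaled FPKM on day 6 and the other that at parturition. The FPKM of a column summed to 439261 in BB on day 6 and 784350 at parturition. Read depth is unknown. The BB scaling factors were 0.986 and 0.939, within 0.765 to 1.11 over all columns. In AABB they were 1.098 and 0.765. Parturition levels of BB given as a share of AABB thus rest on the scaling, and would be larger in FPKM as deposited. Hmgcs1, an enzyme gene of cholesterol synthesis used by most cells, is listed at 0 in BB and AABB at both stages, so an exact 0 can be a failed estimate.

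STAT5A and STAT5B are closely related transcription factors of neighbouring genes. In mammary epithelium, prolactin binding to its receptor activates the kinase JAK2, which phosphorylates STAT5. Phosphorylated STAT5 pairs up, enters the nucleus and binds sites with the letters TTCNNNGAA near genes of milk proteins and of alveolar development. STAT5A is known as the more abundant of the pair in this tissue. Early pregnancy is a time of duct branching and of growth of alveolar buds, and around birth the alveolar cells turn to copious secretion.

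Stat5a itself stood at 3.56 in BB on day 6 and at 4.51 at parturition, against 31.8 and 73.5 in AABB. Stat5b stood at 14.5 and 13.2 in BB, and at 15.8 and 26.3 in AABB. The BB columns thus hold the least Stat5a of the pair of genotypes, as labelled, and their Stat5b level differed little between stages. At parturition the Stat5b level in BB was 50.1% of that in AABB. The column labelled B held more Stat5a transcript than BB, at 12.0 and 8.91, and on day 6 was close to AB (13.05 and 23.8). The Null column, where Cre deletes the Stat5 genes, stood at 13.1 and 7.13, a level like that of B. The Stat5a level thus cannot settle whether the label of B holds. Every comparison with B below is with the column labelled B. The 2 genes are similar in sequence and reads can be divided between them, and transcript of a disrupted allele can remain.

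In BB, 818 of the 12945 genes (6.32%) were higher at parturition and 1204 (9.3%) were lower. At 4-fold the balance was the other way, with 206 higher and 92 lower. The median change over all genes kept was −0.06, with quartiles of −0.54 and 0.39, and every list below is read beside that median and these shares. Of the higher genes, 162 passed the lower limit at parturition only, and of the lower genes 151 passed it on day 6 only. Such genes had little room to move otherwise. The makeup of the RNA differed as well. On day 6 the 403 most abundant genes made up 50% of all FPKM, and at parturition 32 genes did. The most abundant genes of day 6 were Scd1 and the adipocyte genes Car3 (7731 and 2831), Fabp4 (6797 and 4979) and Cfd (4871 and 1159.8), with the translation factor gene Eef1a1 (5163 and 7209.9), the collagen gene Col3a1, Gsn (2665 and 574), Sparc (2228 and 1223), Fasn and the ribosomal gene Rplp1 (2139 and 2602). At parturition milk protein genes held the first places, and Eef1a1 was the only gene of that day 6 group still among the 10 most abundant. Gene lists were set against cell type marker lists throughout, because in whole tissue fewer cells of a type and less RNA per cell cannot be told apart.

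**Figure D1:**
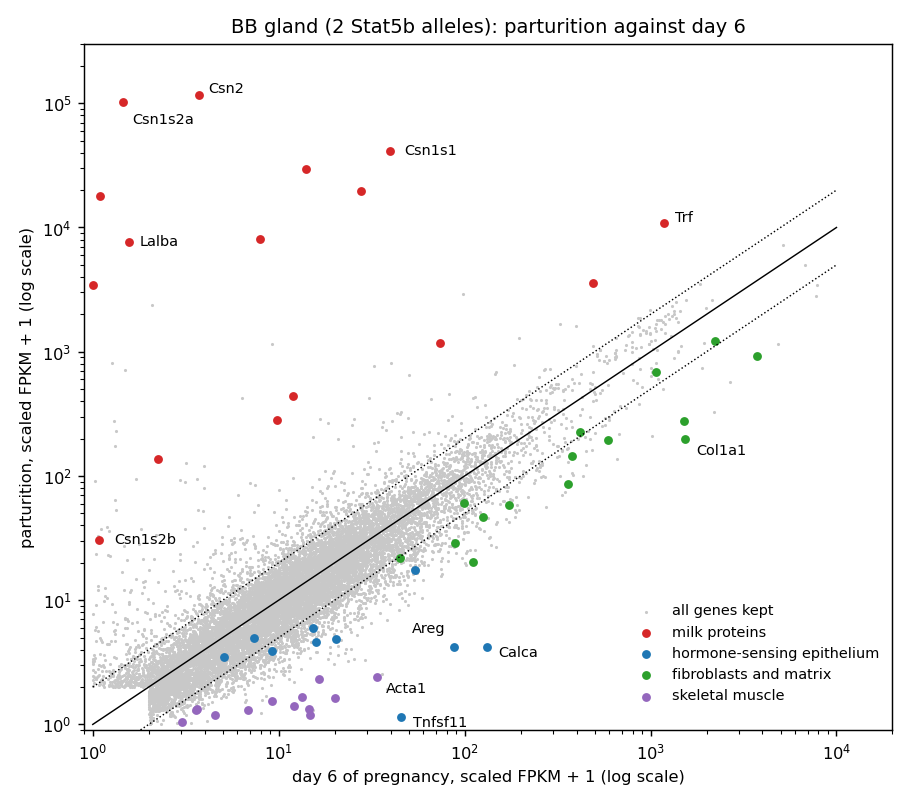
Scaled FPKM + 1 of every gene kept in BB, at parturition (y axis) against day 6 of pregnancy (x axis), both on log scales. Each point is 1 gene in the authors' means, coloured for 4 gene lists; the solid line marks equal levels and the dotted lines 2-fold. Milk protein genes lie above the lines, with Csn2 at 2.74 and 115731, while hormone-sensing, fibroblast and skeletal muscle genes lie below the line of equal levels. The empty corner at the lower left follows from the limit of 1.

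Milk protein genes showed the widest changes in BB. All 16 of the list were higher at parturition, with a median change of 9.74. Their summed share of all FPKM was 0.416% on day 6 and 43.4% at parturition, and that of the 5 caseins was 0.0154% and 33.5%. Beside this, luminal epithelium markers, a list that also holds the alveolar gene Elf5 and the milk fat globule gene Muc1, summed to 1646 and 4149. The part of that in the milk values was not tested. The 3 caseins with the largest share at parturition are shown with their RefSeq promoters, 250 bases before to 50 after the annotated start, together with the STAT5 feedback gene Cish, whose level barely differed between stages. Each is written 5′ to 3′ on the strand of its gene, with matches to TTCNNNGAA in capitals, and a match is a description of letters, not a measured site.
Csn2: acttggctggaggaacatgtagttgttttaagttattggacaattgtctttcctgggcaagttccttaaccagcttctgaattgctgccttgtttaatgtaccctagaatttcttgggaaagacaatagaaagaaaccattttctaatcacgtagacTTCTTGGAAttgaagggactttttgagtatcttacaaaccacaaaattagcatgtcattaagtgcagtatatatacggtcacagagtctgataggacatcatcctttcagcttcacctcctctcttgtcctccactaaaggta
Csn1s1: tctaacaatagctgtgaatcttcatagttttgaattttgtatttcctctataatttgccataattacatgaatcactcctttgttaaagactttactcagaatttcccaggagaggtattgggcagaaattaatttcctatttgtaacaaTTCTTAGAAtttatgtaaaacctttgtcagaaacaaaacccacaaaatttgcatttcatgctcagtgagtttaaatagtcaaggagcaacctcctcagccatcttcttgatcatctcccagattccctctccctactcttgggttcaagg
Csn1s2a: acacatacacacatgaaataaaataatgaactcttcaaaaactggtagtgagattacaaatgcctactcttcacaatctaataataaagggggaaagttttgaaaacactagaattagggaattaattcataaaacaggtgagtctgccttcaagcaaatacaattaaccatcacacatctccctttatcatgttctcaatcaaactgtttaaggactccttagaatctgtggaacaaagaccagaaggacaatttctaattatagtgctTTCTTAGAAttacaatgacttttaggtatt
Cish: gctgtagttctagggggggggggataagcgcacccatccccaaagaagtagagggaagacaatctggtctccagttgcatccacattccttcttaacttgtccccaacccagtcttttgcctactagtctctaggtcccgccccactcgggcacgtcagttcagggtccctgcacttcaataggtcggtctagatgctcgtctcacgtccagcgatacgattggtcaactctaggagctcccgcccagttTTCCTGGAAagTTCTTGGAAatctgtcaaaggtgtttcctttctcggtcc

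In the build GRCm38.p6 of that RefSeq table, which differs from the mm9 build of the alignment, the Csn2 window is chr5:87699376-87699675 on the minus strand. Its match covers bases 158 to 166 of the window, counted from the 5′ end. The Csn1s1 window is chr5:87665958-87666257 on the plus strand, with the match at bases 151 to 159. The Csn1s2a window is chr5:87774200-87774499 on the plus strand, and its match, at bases 271 to 279, lies after the annotated start. The Cish window is chr9:107296409-107296708 on the plus strand and holds 2 matches, at bases 251 to 259, which begin at the annotated start, and at 262 to 270, after it. The motif reads the same on both strands, so 1 search covers both. Of 32851 promoter windows of this length in the table, 2726 (8.30%) hold it. The windows of Lalba, Elf5, Spp1 and Tnfsf11 hold no match, which says only that these letters are not in those 300 bases.

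Csn2, the beta-casein gene, stood at 2.74 in BB on day 6 and at 115731 at parturition. In AABB it was already at 2802 on day 6 and reached 253048. The ratio of stages in BB was 42184, and the parturition level was 45.7% of that of AABB. BB thus began far lower and ended within a few-fold of wild type. Csn1s2a, an alpha-S2 casein gene, was at 0.462 and 102364 in BB and at 1133 and 214448 in AABB. Csn1s1, the alpha-S1 casein gene, was at 38.6 and 41655 in BB and at 1087 and 114987 in AABB. Csn3, which encodes the kappa-casein that stabilises the casein micelle, was at 26.6 and 19774 in BB and at 199.6 and 75621 in AABB. At parturition these 3 levels were 47.7%, 36.2% and 26.1% of those in AABB.

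Csn1s2b, the neighbouring alpha-S2 casein gene, stood apart from the other caseins. Its level in BB was 0.0860 on day 6 and 29.6 at parturition, against 1.18 and 17794 in AABB. The parturition level in BB was 0.166% of that of AABB, the lowest share among the 16 genes, whose median was 26.8% and whose highest was 80.0% (Muc15). In AB it was at 0.0631 and 294, and in B at 0.0649 and 0.255. The order at parturition was thus AABB, AB, BB and B, whereas Csn2, at 101232 in AB and 2794 in B, was at a like level in BB and AB.

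Whey and secretory milk genes were also higher. Lalba, the alpha-lactalbumin gene whose product turns galactosyltransferase into lactose synthase, stood at 0.558 and 7679 in BB, and its parturition level was 68.1% of that in AABB (11278). Glycam1, a mucin-like milk protein gene, was at 13.1 and 29814, and Spp1 (osteopontin) at 6.89 and 8060.3. Lao1, an amino acid oxidase gene, was listed at 0 on day 6 and stood at 3432 at parturition. These genes were low or listed at 0 on day 6 and high at parturition. Trf (transferrin) was different in that it stood at 1177 on day 6 and 10869 at parturition, a ratio of 9.23. The antimicrobial gene Ltf (lactoferrin) was at 10.99 and 439. All 16 genes at parturition were below AABB and above B, and 10 were above AB.

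**Figure D2:**
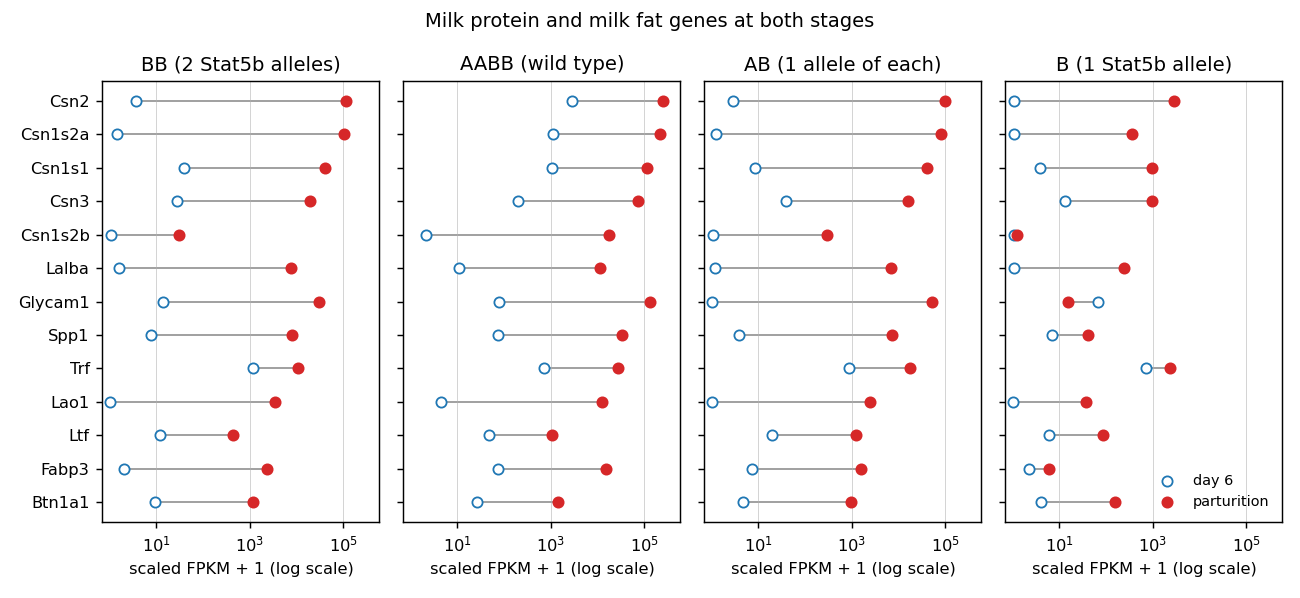
Scaled FPKM + 1 (log scale) of selected milk genes on day 6 of pregnancy and at parturition in the BB, AABB, AB and B columns, each point an authors' mean with no error. Csn2 in BB goes from 2.74 to 115731 and in AABB from 2802 to 253048, and Csn1s2b in BB reaches 29.6 where AABB reaches 17794.

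Genes of the milk fat globule and of triglyceride assembly were higher in 9 of 18 cases and lower in 1, with a median of 0.78. Fabp3, the carrier of fatty acids in the cytosol, stood at 1.08 and 2374 in BB, and at 74.4 and 15201 in AABB. Btn1a1 (butyrophilin), a protein of the globule membrane, was at 8.18 and 1159.8 in BB and at 25.5 and 1442 in AABB, so that the parturition level was 80.4% of wild type. Its binding partner Xdh (xanthine dehydrogenase) was at 44.1 and 313, Plin2, a coat protein of lipid droplets, at 195 and 1281, and Cidea, which acts in droplet growth, at 15.6 and 287. The globule and droplet coat genes named here were thus all higher. The lower gene was Dgat2, which makes triglyceride in adipocytes and liver as well, at 656 and 136 in BB and 798 and 61.2 in AABB.

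De novo fatty acid synthesis went the other way in BB. Of 19 genes 9 were lower and 3 higher, with a median of −0.77, against 0.65 in AABB, where 8 were higher and 1 lower. Fasn, the fatty acid synthase gene, stood at 2187 and 324 in BB and at 1451 and 847 in AABB. Scd1, a desaturase gene and the most abundant gene of BB on day 6, was at 7809 and 3454, while AABB had 3912 and 6529.6. Acly, which supplies cytosolic acetyl-CoA, was at 738 and 350 in BB and at 667 and 966 in AABB. For Scd1 and Acly, the direction in BB was thus opposite to that in AABB, although without scaling the AABB changes were only 0.22 and 0.01 and the list's median there 0.13. Slc25a1 (434 and 98.3), Acss2 (134 and 30.4) and Elovl6 (106 and 24.4) were also lower in BB. Beside these, adipocyte markers, whose cells also use this pathway, were 12 of 18 lower and summed to 23285 and 10582 in BB, and to 21098 and 5231 in AABB. Adipoq, the adiponectin gene, was at 1162 and 499.6, and the droplet coat gene Plin1 at 382 and 102. Their part in the lipid values was not tested. Olah, the thioesterase gene that ends synthesis at the medium chain lengths of milk fat, was at 0.294 and 274, and Aldoc and Elovl1 were higher too (changes 2.78 and 1.41). Cholesterol synthesis genes were 3 of 19 higher and none lower, with a median of 0.39 and Sc4mol, Hsd17b7 and Mvd as the higher ones (1.48, 1.51 and 1.02). AABB had 9 of 19 higher.

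Lactose synthesis and glucose supply had 3 of 11 genes higher and none lower, with a median of 0.17, and 6 higher and 4 lower in AABB. B4galt1, the galactosyltransferase that works with alpha-lactalbumin, stood at 44.5 and 206 in BB and 51.7 and 642 in AABB. The glucose transporter gene Slc2a1 was at 17.0 and 50.2. Other steps such as Hk1 (28.0 and 31.1) and Ugp2 (44.8 and 50.4) were within 2-fold.

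Secretory pathway genes were 12 of 26 higher and none lower, with a median of 0.92. Xbp1, a transcription factor of secretory cells, stood at 146 and 683 in BB, beside 198 and 812 in AABB. The translocon-associated genes Ssr4 (84.8 and 304) and Ssr2 (116 and 358) and the translocon gene Sec61b (94.2 and 267) were higher as well. So were the chaperone gene Hspa5 (287 and 719) and Dnajb9 (17.2 and 56.7). Ddit3, a gene of the terminal stress response, was at 11.4 and 9.29, within 2-fold. Tight junction genes, which close the spaces between milk cells, were 4 of 12 higher: Cldn8 (9.03 and 76.1), Cldn1 (6.36 and 27.2), Cgn (4.72 and 13.6) and Ocln (6.03 and 15.7).

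Of the genes of milk mineral transport and serotonin, 9 of 11 were higher in BB and none was called lower, with a median of 1.85 against 3.75 in AABB. The folate receptor gene Folr1 stood at 5.32 and 419 (AABB 10.8 and 1135), the phosphate transporter gene Slc34a2 at 0.714 and 93.7 (AABB 1.35 and 681) and the Golgi calcium pump gene Atp2c2 at 2.15 and 88.6 (AABB 2.57 and 199). These transport genes had the direction of wild type at lower parturition levels. Atp2b2, the calcium pump of the apical membrane, was at 0.0426 and 1.31 in BB against 0.0551 and 65.7 in AABB, so its parturition level was 2.00% of wild type. Pthlh, the hormone that draws calcium from bone, was at 3.37 and 1.47 in BB and at 0.723 and 22.2 in AABB. Tph1, the first enzyme of serotonin synthesis, was at 9.01 and 35.3 in BB and at 19.6 and 3.18 in AABB. Pthlh and Tph1 thus had opposite directions in the 2 genotypes, the former within 2-fold in BB on the log scale used. Amino acid transporters were 5 of 13 higher and 3 lower, with Slc38a3 (1.85 and 10.98) and Slc1a4 (4.27 and 16.8) among the higher and Slc1a5 (264 and 99.8) among the lower.

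In the prolactin and STAT5 signalling list, 4 of 19 genes were higher and 4 lower, with a median of −0.02. Elf5, the transcription factor of alveolar identity, stood at 31.5 and 759.8 in BB and at 107 and 1126 in AABB. Id2, needed for alveolar growth, was at 44.3 and 326, and Ehf and the RANK receptor gene Tnfrsf11a were higher too (changes 1.22 and 1.92). At parturition these alveolar regulators were within 2-fold of AABB. Cish, whose promoter is printed above, was at 9.97 and 9.79 in BB and at 49.9 and 45.1 in AABB. Its level thus differed between the genotypes at both stages, as casein levels did. Unlike theirs, it hardly differed between the stages. The prolactin receptor gene Prlr (28.8 and 26.6), Jak2 (14.5 and 17.9) and Socs2 (8.67 and 12.6) were within 2-fold in BB.

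The lower genes of that list were Tnfsf11, Wnt4, Bcl6 and Igf1, of which the first pair also belong to the hormone-sensing epithelium. These cells carry oestrogen and progesterone receptors and signal to their neighbours. Of 10 hormone-sensing genes 8 were lower in BB and none higher, with a median of −1.70, against −3.30 in AABB. Tnfsf11, which encodes the paracrine growth signal RANKL, stood at 44.7 and 0.150 in BB and at 45.0 and 0.0574 in AABB. Calca (calcitonin) was at 131 and 3.17, and Areg, the EGF receptor ligand amphiregulin, at 86.4 and 3.16. Foxa1, a partner of the oestrogen receptor, was at 19.3 and 3.84, Cited1 at 52.9 and 16.4, and Esr1 at 14.3 and 5.02. Day 6 levels of Tnfsf11 were almost the same in BB and AABB. At parturition Foxa1 was at 1.05 in AABB, and Areg is listed at 0 there. Pgr was at 6.33 and 3.99, within 2-fold in BB and lower in AABB (3.10 and 0.419).

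Cell cycle genes were 11 of 30 lower and 1 higher, with a median of −0.60, beside 10 lower and 1 higher of 31 in AABB. The replication licensing genes Mcm3 (16.0 and 4.30) and Mcm5 (15.3 and 4.26) and the mitotic kinase gene Aurkb (5.74 and 1.25) were lower. Mki67, a proliferation marker, was the exception at 1.89 and 6.13 in BB and 8.01 and 27.5 in AABB. Genes linked to STAT3 and to involution were 5 of 15 higher and 1 (Mmp3) lower, with a median of 0.71. Saa1, an acute phase gene, stood at 0.489 and 713, Lcn2 (lipocalin) at 97.0 and 2932, and Cd14 at 42.5 and 323. AABB had Saa1 at 1.11 and 1057 and Lcn2 at 175 and 4502, so these genes were high at parturition in both. Saa1, Saa2 and Saa3 are close copies and their single levels are uncertain. Interferon response genes were 4 of 18 higher (Isg15, Xaf1, Ifit1 and Ifih1) and none lower, with a median of 0.77, whereas AABB had none higher, 1 lower and a median of −0.04.

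**Figure D3:**
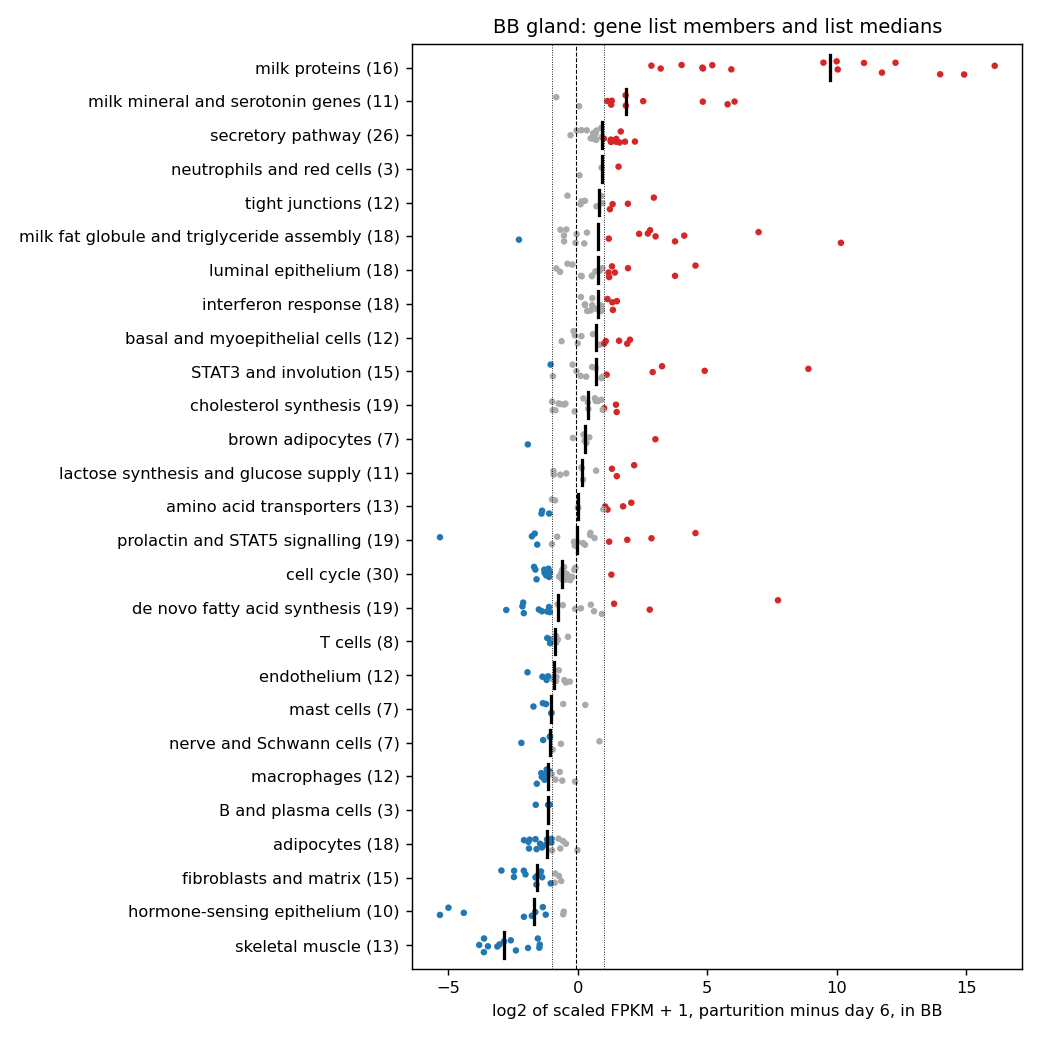
Change of every gene kept in BB for the function and marker lists, as log2 ratio of scaled FPKM + 1 at parturition over day 6. Points are genes, red where higher, blue where lower and grey within 2-fold; black bars are list medians, dotted lines mark 2-fold and the dashed line is the median of all genes kept. Numbers in brackets count the genes kept. The milk protein median is 9.74 and the skeletal muscle median −2.84, beside −0.06 over all genes kept.

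The cell type markers describe the tissue around these changes. Luminal epithelium markers were 7 of 18 higher and none lower in BB, with a median of 0.78, and the keratin genes Krt8 (250 and 628) and Krt18 (269 and 729.6) were among them. Epcam, Cd24a, Muc1, Ehf and Elf5 were the others, and Muc1, Ehf and Elf5 also belong to the milk fat or signalling lists. Krt7 (55.9 and 34.6), Wfdc2 (24.9 and 13.6), Cldn4 (32.7 and 24.7) and Cdh1 (56.7 and 49.1) went down within 2-fold. The AABB median was −0.21, with Krt8 at 295 and 227. Basal and myoepithelial markers were 5 of 12 higher, all of them genes of contraction: Acta2 (394 and 1603), Myh11 (30.1 and 116), Cnn1, Tagln and Mylk. The basal keratin gene Krt5 was at 123 and 110. Vascular smooth muscle shares the contractile genes.

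Stromal markers were mostly lower in BB. Fibroblast and matrix markers were 11 of 15 lower, with a median of −1.56 and a sum of 12427 on day 6 and 4186 at parturition. Col1a1 stood at 1531 and 198 and Col3a1 at 3713 and 919.8, beside 574 and 40.5, and 666 and 141, in AABB. The direction was that of wild type, while both levels in BB were higher. AB was near BB in this, with Col1a1 at 1377 and 336 and Col3a1 at 3345 and 915. B had 316 and 273, and 1821 and 576. Of endothelial markers 5 of 12 were lower, of macrophage markers 7 of 12, and of nerve and Schwann cell markers 4 of 7, with none higher in these lists. Vwf, made by vessel walls, was at 20.8 and 4.69, and the macrophage gene Emr1 at 33.2 and 10.5. Mast cell markers were 4 of 7 lower and summed to 370 and 183, against 66.6 and 15.7 in AABB, and the protease gene Cma1 was at 86.3 and 25.8 in BB and 3.58 and 2.23 in AABB. The mast cell sums were 280 and 165 in AB and 460 and 230 in B, so AABB was the low one of these genotypes. T cell markers (3 of 8 lower) and B and plasma cell markers (3 of 3) summed to 17.2 and 5.56, and to 28.1 and 10.3. Of neutrophil and red cell genes 1 of 3, S100a8, was higher. The haemoglobin genes Hba-a1 and Hbb-b1 are listed at 0.

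Skeletal muscle markers were 13 of 13 lower in BB, summing to 143 and 6.74, with Acta1 at 32.6 and 1.41. Muscle that borders the gland can enter a sample. The sum was 136 and 299 in AABB, 7785 and 11.7 in AB and 37.9 and 2641 in B, so it moved by stage in every genotype and not in 1 direction. Brown adipocyte markers summed to 109 and 67.4 in BB and to 1208 and 51.2 in AABB, and Ucp1, the heat-producing uncoupling protein, was at 1.96 and 22.7 in BB and at 293 and 12.2 in AABB. The part of these tissues in the calls was not tested.

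The other genotypes were set beside BB to show where its stage change stood, in contrasts that share no sample with it. AABB had 1593 of 13037 genes higher (12.2%) and 2161 lower (16.6%). AB had 847 of 13103 higher (6.46%) and 1300 lower (9.92%), and B had 509 of 13396 higher (3.8%) and 500 lower (3.73%). On this scaling BB thus lay near AB, the other genotype with 2 alleles, and between AABB and B. The nearness to AB depended on the scaling. With equal sums of genes outside the milk protein list, BB had 694 higher and 1415 lower, and AB had 1021 and 1063. Of the genes higher in BB, 592 were also higher in AABB, which is 72.4% of the BB list and 37.2% of the AABB list. Of those lower in BB, 865 were lower in AABB (71.8% and 40.0%). With AB the shared lists held 535 higher genes (65.4% of BB, 63.2% of AB) and 645 lower (53.6% and 49.6%). With B they held 186 (22.7% and 36.5%) and 142 (11.8% and 28.4%). Opposite calls in BB were made for 15 of the 1593 genes higher and 15 of the 2161 lower in AABB. They were made for 8 of the 847 and 5 of the 1300 in AB, and for 37 of the 509 and 13 of the 500 in B. Over all genes kept in BB, 9.3% were lower and 6.32% higher. The 37 of 509 genes higher in B is not far below the share lower over all genes, so it is not read as a likeness to B.

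Across genes kept in both, the changes in BB correlated with those in AB at a Pearson r of 0.818 (12702 genes), with those in AABB at 0.763 (12517 genes) and with those in B at 0.385 (12723 genes). Genes are not independent replicates, the columns were scaled together, and the values describe these columns only. Without the milk protein list they were 0.786, 0.751 and 0.316. Over the genes higher in AABB, the median change was 1.47 in AABB and 0.81 in BB. Over the genes lower in AABB it was −1.47 and −0.87. Those genes were picked by their change in AABB, which widens the gap. Over the genes higher in BB the median change was 1.59 in AABB and 1.38 in BB. Over the genes lower in BB it was −1.44 and −1.26. The muscle sums above differ widely between these genotypes. Lymphocyte markers did so too. In the column labelled B, B and plasma cell markers summed to 251 and 11.7, with 10 of 10 lower, and 7 of 9 T cell markers were lower. The part of muscle and lymphocytes in the likeness was not tested.

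**Figure D4:**
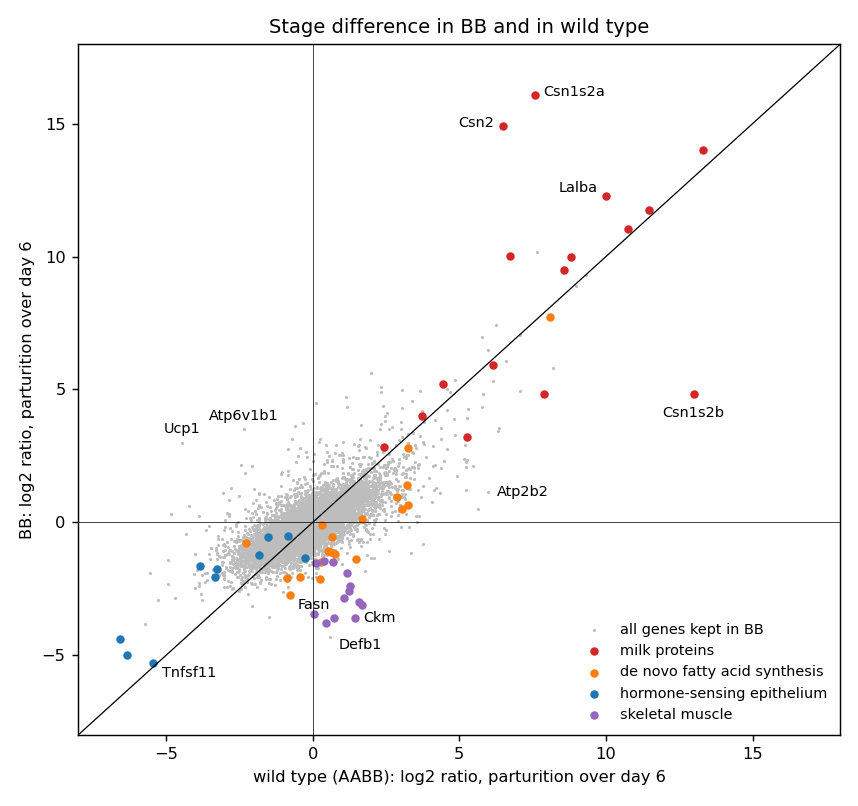
Change from day 6 to parturition in BB (y axis) against AABB (x axis), as log2 ratio of scaled FPKM + 1, 1 point per gene kept in BB, with the line of equal change. Over the 12517 genes kept in both genotypes the correlation is 0.763; Csn1s2b lies far below the line and Csn1s2a and Csn2 far above it.

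The genes whose change in BB exceeded that in AABB by most were Csn1s2a (difference of changes 8.53) and Csn2 (8.42), for which AABB began from a high day 6 level. Next came Ucp1 (7.48), Atp6v1b1 (5.87), Gdpd3 (5.14), Nnat (4.85), Plb1 (4.62) and Mup10 (4.23, with close relatives in the genome). Atp6v1b1, a subunit gene of the proton pump, stood at 24.4 and 288 in BB and at 40.2 and 7.02 in AABB. Gdpd3 was near 1 in BB at both stages, and at 58.4 and 1.08 in AABB, so its difference came from AABB alone. Nnat was at 59.9 and 92.1 in BB and at 289 and 14.3 in AABB. The list thus mixes genes that moved in BB with genes that moved in AABB only.

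The genes whose change in BB fell short of that in AABB by most were Csn1s2b (−8.18), Ckm (−5.04), Defb1 (−4.90), Atp2b2 (−4.83), Tnnt3 (−4.79), Tnni2 (−4.60), Pthlh (−4.57) and Pip (−4.40). Ckm, Tnnt3 and Tnni2 are skeletal muscle genes and move with the muscle sums above. Defb1, a defensin gene, stood at 37.1 and 0.925 in BB and at 7.75 and 12.2 in AABB. Pip, a secreted protein gene, was at or near 0 in BB (0 and 0.371), below the limit of 1, and at 0 and 27.9 in AABB. Pip, Atp2b2 and Pthlh reached the level of 5 set for this ranking only in AABB at parturition. Their place in it thus follows in part from that condition. Among genes outside the lists that lay at the extremes in BB, Cck (cholecystokinin) was at 0.335 and 228, with 151 in AABB at parturition. Pigr, which carries IgA into milk, was at 0.319 and 173, with 448 in AABB. At the other end Rspo1, which potentiates Wnt signalling, was at 24.5 and 2.38 in BB and at 99.1 and 1.57 in AABB, and Gpnmb was at 34.9 and 1.53.

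**Figure D5:**
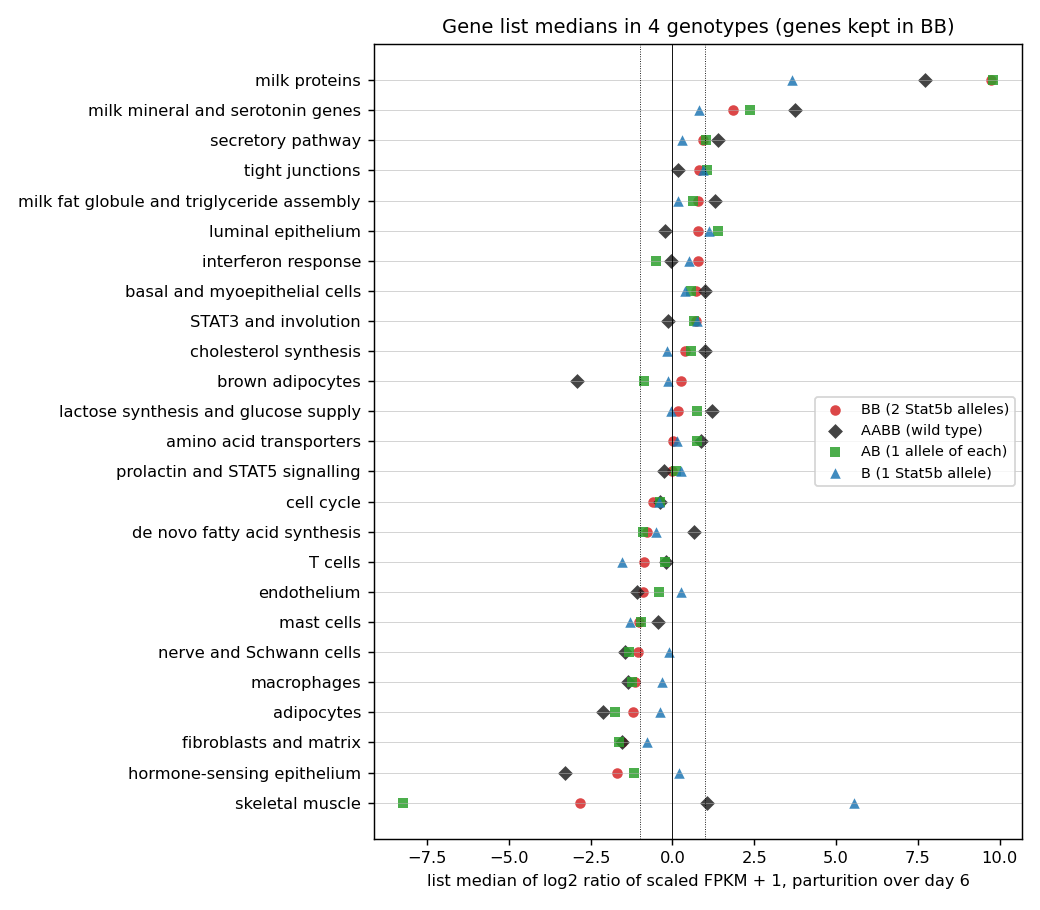
Median change of each list with more than 3 genes kept, over the genes kept in BB, in BB, AABB, AB and B, as log2 ratio of scaled FPKM + 1 at parturition over day 6. Dotted lines mark 2-fold. The milk protein medians are 9.74, 7.73, 9.80 and 3.65, de novo fatty acid synthesis has −0.77, 0.65, −0.90 and −0.50, and skeletal muscle has −2.84, 1.05, −8.24 and 5.53.

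The list medians place BB beside the other genotypes. The de novo fatty acid median was −0.77 in BB, −0.90 in AB and −0.50 in B, and 0.65 in AABB. The milk mineral list had 1.85 in BB, 2.37 in AB, 0.81 in B and 3.75 in AABB, and the secretory pathway 0.92, 1.01, 0.29 and 1.38. Hormone-sensing markers had −1.70, −1.18, 0.21 and −3.30. In these 3 lists the genotypes with 2 alleles lay between AABB and B, except that without scaling the secretory median was 0.86 in AABB and 0.95 in AB. So did adipocyte markers, at −1.20, −1.77, −0.37 and −2.14, while for de novo synthesis BB and AB lay below both. Other lists also departed from this order. Milk protein medians in BB (9.74) and AB (9.80) were above both AABB (7.73) and B (3.65). The interferon response median in BB (0.77) was above both, and that in AB was below both. The cell cycle median in BB (−0.60) was below both, and the luminal epithelium median was highest in AB. A graded order was thus not general. The columns are means and these differences could not be tested, so nothing here is shown to be particular to BB.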

How the data were processed

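CASAVA, TopHat and the mouse build mm9 are named in the submitters' processing notes, with no versions. The deposited values are FPKM per gene symbol, with 1 column per genotype and stage that the authors averaged over the samples listed. The program that estimated FPKM, its annotation and any filter are not given in the sources used here. On day 6 the labels list 3 samples for each genotype, whereas their protocol mentions 2 mice.

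The 2 tables were joined on gene symbol, and median-ratio factors for the 12 columns came from the 10608 genes at FPKM 1 or more in every column. Ratios are log2 of scaled FPKM + 1, kept for genes with a scaled level of 1 or more at either stage. No test could be run on means. The members, the 27 gene lists (13 of function, 14 of cell type markers) and the comparisons were chosen with earlier results of these data known. Named genes are Stat5a and Stat5b, the 15 highest and 15 lowest changes in BB among genes with a level of 5 or more, the 10 most abundant genes of each BB column, up to 5 members per list with the largest change, and the 8 largest differences to AABB in each direction. Those differences were ranked over genes with a level of 5 or more in any BB or AABB column, whether or not kept in BB. Other list members named in the text were chosen after their values were seen, for their roles, and some genes within the rule are counted but not named. Promoters came from RefSeq (GRCm38.p6) by symbol. Of the 12945 genes kept only 9147 matched, too few for a share over the gene set. The calculation was tested on simulated data, in which 100% of 200 genes changed 4-fold were recovered. All simulated columns shared a base profile, with as many of those genes raised as lowered and the milk protein list raised. The simulation thus checks the arithmetic and does not show that the scaling holds for these columns. Python 3.11.15, numpy 2.4.6, pandas 2.3.3, scipy 1.17.1 and matplotlib 3.10.9 were used.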

Additional observations from a re-analysis of the deposited data

How the results depend on the processing

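At a pseudocount of 0.1 the genes lower in BB numbered 1839 and those lower in B 888. Without scaling, AABB had 824 genes higher and 3817 lower, so 17.8% of its calls were higher against 42.4%, and its median over all genes shifted to −0.55. The share of milk transcript with the 5 caseins alone was 0.0154% and 33.5%. That pseudocount gave 1109 genes higher in BB. Under the other filters and scalings the BB counts ranged from 656 to 871 higher and from 1005 to 1415 lower. No named gene or list median past 2-fold changed direction. For a single gene this was close to settled beforehand. Filters leave its ratio as it is, and the scalings moved the BB median only to between −0.14 and −0.02. Some fell below 2-fold, such as 3 named genes with equal sums of genes outside the milk protein list. With the 2 BB columns scaled alone, 1 list median did. List medians near 0 did change direction: amino acid transporters (0.02) went to −0.04 without scaling, and prolactin and STAT5 signalling (−0.02) to 0.20 among genes at 1 or more in both columns. No paired analysis was possible because each column is a mean over samples, and for the same reason no replicate was left out in turn. Animal-to-animal spread and read depth are unknown, so weakly expressed genes, genes listed at 0 and differences near 2-fold are the least certain values.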

Other observations

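The genes of this section were chosen after their values were seen. They fall under no list, and those on transport went both ways. Foxi1, a transcription factor of proton-secreting epithelial cells, stood at 2.63 on day 6 and 93.8 at parturition in BB, at 2.59 and 6.94 in AABB, and at 2.52 and 62.0 in B. The sodium channel subunit gene Scnn1b was at 6.03 and 87.3 in BB, 6.77 and 23.4 in AABB and 6.61 and 51.6 in B. Clic6, a chloride channel family gene, was at 2.91 and 51.2 in BB, 2.18 and 1.52 in AABB and 2.43 and 54.3 in B. In AB the parturition levels of these 3 genes were 68.8, 48.3 and 38.3, so in BB, AB and the column labelled B they were above AABB. The water channel gene Aqp3 was also higher in BB at parturition (0.201 and 22.1), but AABB had 53.1 and B 1.04 then. The proton pump gene Atp6v1c2 was at 10.3 and 16.5 in BB, with 22.9 at parturition in AABB. Scnn1g was higher in BB (1.73 and 12.0), whereas Scnn1a (6.68 and 2.27) and the proton pump gene Atp6v0d2 (7.04 and 0.242) were lower.

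Apod (apolipoprotein D) stood at 39.0 and 807 in BB and at 9.53 and 22.6 in AABB. Pinc, a noncoding RNA of the pregnant gland, was at 0.315 and 63.2 in BB and 1.01 and 6.92 in AABB. Bhlha15, a transcription factor of secretory cells, was at 0.465 and 26.1 in BB and 1.67 and 62.7 in AABB, and Sftpd, a collectin gene, at 0.0652 and 31.8 against 4.56 and 745. The first pair ended above wild type in BB and the second pair below it.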
